A study of Rattus norvegicus with 12 samples.

Results

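The genes described here encode amino acid and neurotransmitter transporters of solute carrier families 1, 3, 6, 7 and 38. They were matched by gene symbol (Slc1a, Slc3a, Slc6a, Slc7a or Slc38a followed by a number), which found 55 of the 28111 gene names. This choice was made with earlier results of these data known. Of these 55, 33 had a mean of at least 1 TPM (a transcript level corrected for transcript length and for the library total) over the 12 libraries and were tested, 12 were above 0 in some library with a mean under 1, and 10 were listed at 0 in every library. One tested gene, Slc7a6os, matched the symbol rule but is a neighbour of Slc7a6 on the opposite strand and is not a transporter, so 32 tested transporters remained. Primary neuroglial cultures were prepared from the cortex of newborn (P0 in the labels) Wistar rat pups, and RNA was collected 4 h after an addition made on day 10 in vitro. IC denotes the intact culture with no addition, EV the culture given extracellular vesicles at 10 µg/mL, the protein group received the 3–100 kDa protein fraction at 15 µg/mL, and the last group received the total secretome at 45 µg/mL, with 3 libraries in each. All 3 preparations came from glial progenitor cells differentiated from human induced pluripotent stem cells, and no group received glutamate. Cytosine arabinoside, which limits the division of glia, was part of the culture protocol, and the culture was a mixture of neurons and glia, so that a lower bulk level could come from fewer cells of a type or from less RNA per cell, which cannot be told apart. The methods state in general that experiments were repeated on unrelated cultures, and a day term was removed from the IC and EV libraries before they were plotted there. The labels do not say which culture or day each library came from, so day could not be entered in a fit, and p-values measure the spread between these libraries, whatever its source.

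Amino acid transporters move glutamate, GABA, glycine and nutrient amino acids across the plasma, vesicular and lysosomal membranes. In cortex, astrocytes clear glutamate from the synaptic cleft, convert it into glutamine and release it through system N carriers, and neurons take it up again through system A carriers to rebuild glutamate and GABA. Other members supply essential, cationic and small neutral amino acids for protein synthesis, and several of these are known targets of the amino acid response, a stress programme driven by the transcription factor Atf4.

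The summed TPM of 10 neuronal markers was 4286 to 5645 per library, and that of 10 astrocyte markers was 744 to 1504. Markers of microglia summed to at most 3.19 TPM with Ptprc at 0 in every library, markers of endothelial cells to at most 0.758 TPM, and markers of meningeal fibroblasts and mural cells to at most 4.28 TPM. Between 14890 and 15392 rows were above 0 per library, and the factors that put the 12 libraries on one scale lay between 0.909 and 1.08. The sequencing depth behind each TPM is unknown. Rps6, a ribosomal protein gene that every cell uses, had a value of 0 in each of the 12 libraries, and a 0 in these files is therefore not read as a missing transcript. Astrocyte-associated transcripts differed between libraries of one group: Gfap, an astrocyte filament protein, was 85.1, 361 and 128 TPM in the 3 IC libraries.

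On the TPM scale, Slc1a3, the astrocytic glutamate transporter GLAST, had the highest mean over the 12 libraries at 288 TPM. Other abundant members were Slc3a2, the heavy chain shared by several amino acid exchangers, at 113 TPM, Slc6a17, a synaptic vesicle transporter of neutral amino acids, at 103 TPM, and the large neutral amino acid transporter Slc7a5 at 100.1 TPM. The library ranges of these 3 genes overlapped (86.1 to 143, 71.9 to 152 and 67.0 to 132 TPM), so their order was not resolved. The 10 genes listed at 0 in every library were Slc1a7, Slc6a12, Slc6a14, Slc6a18, Slc6a19, Slc7a9, Slc7a12, Slc7a13, Slc7a15 and Slc38a11. The 3 monoamine transporters, Slc6a2, Slc6a3 and Slc6a4, which mark noradrenergic, dopaminergic and serotonergic neurons, summed to at most 0.232 TPM in any library. The other genes with a mean under 1 TPM were Slc3a1, Slc6a5, Slc6a13, Slc6a16, Slc6a20, Slc7a7, Slc38a4, Slc38a5 and Slc38a8.

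**Figure D1:**
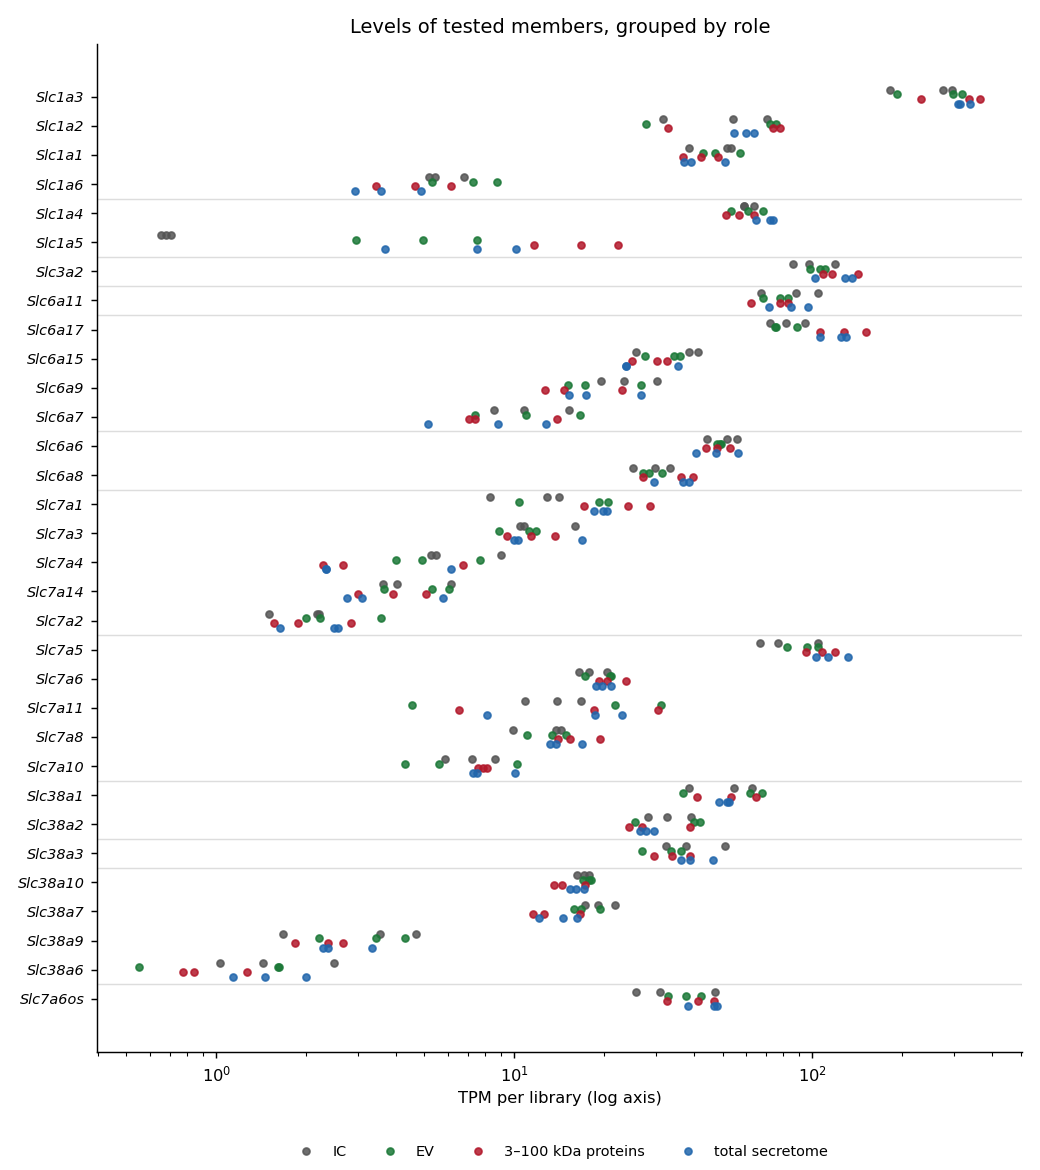
Level of tested members in each library, in TPM on a log axis. Each point is 1 library, colours give the condition, and grey lines separate the role groups. The IC libraries of Slc1a5 lie between 0.653 and 0.704 TPM, apart from its 9 treated libraries at 2.95 to 22.3 TPM, whereas for most other members the 4 conditions overlap.

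Slc1a5 and Slc6a17 were the members that passed the threshold against IC. In limma fits over all 12861 tested genes, with adjusted p under 0.05 as the threshold, 0 of 33 members passed in EV against IC (0.0933% of all tested genes), 1 of 33 passed in the 3–100 kDa proteins against IC (2.86%), and 2 of 33 passed in the total secretome against IC (1.82%). The gene in the protein comparison was Slc1a5, and those in the secretome comparison were Slc1a5 and Slc6a17, all higher than in IC. At an unadjusted p under 0.05, the counts were 1 (2.98% of all tested genes), 5 (17.2%) and 6 (16.9%). As shares of the 33 members these are 3.03%, 15.2% and 18.2%, near the background in each comparison. The median log2 fold change of the 33 members was 0.03, -0.05 and 0.02 in the 3 comparisons, beside -0.0047, -0.02 and -0.01 over all tested genes. The 3 comparisons share the same IC libraries and are not independent of each other. All fold changes below are on the log2(TPM + 1) scale, on which the change of a low gene comes out smaller than it was.

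**Figure D2:**
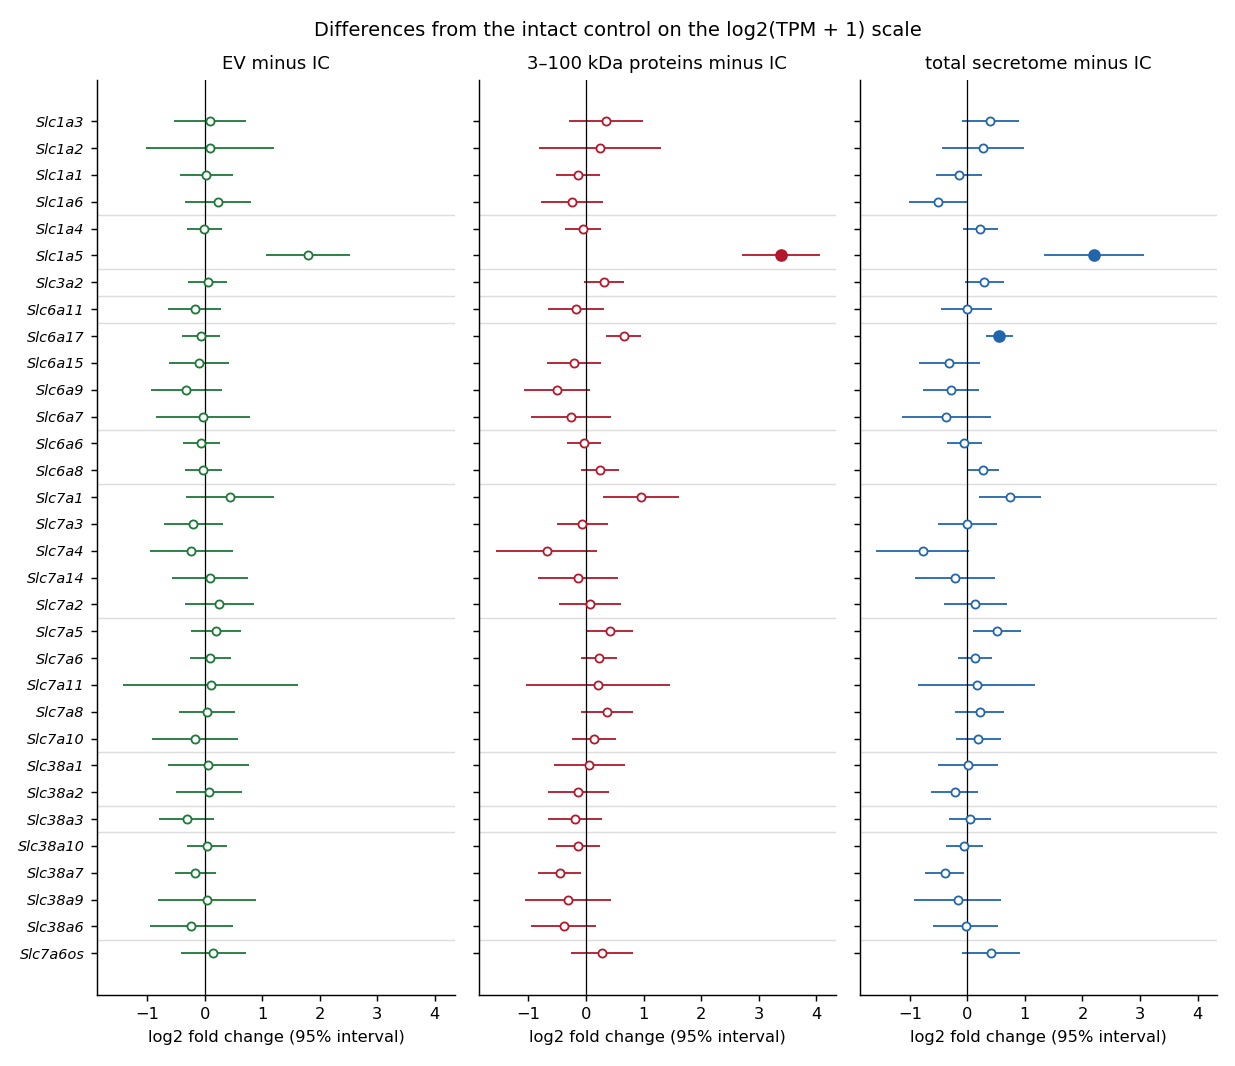
Difference of tested members from IC on the log2(TPM + 1) scale, with 1 panel per preparation. Bars are 95% intervals of the limma fit and filled points have an adjusted p under 0.05: Slc1a5 in the protein and secretome panels and Slc6a17 in the secretome panel.

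The exchanger Slc1a5 (ASCT2), which trades glutamine for other small neutral amino acids, had the largest difference from IC of all tested members in all 3 comparisons. In IC it was 0.704, 0.653 and 0.680 TPM. After EV it was 2.95, 4.93 and 7.52 TPM, after the 3–100 kDa proteins 11.6, 16.7 and 22.3 TPM, and after the total secretome 3.70, 7.50 and 10.1 TPM. Every treated library lay above every IC library. Mean TPM was 0.679 ± 0.0254 (SD, n = 3) in IC, 5.14 ± 2.29 after EV, 16.9 ± 5.35 after the proteins and 7.11 ± 3.24 after the secretome, which gives ratios of means to IC of 7.56, 24.9 and 10.5. Because its IC level was under the filter of 1 TPM, Slc1a5 entered the test only through the treated groups. Without it, the counts of members with an adjusted p under 0.05 would be 0, 0 and 1. Every other count of members that includes Slc1a5, among them that of the F test, carries the same limit.

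On the log2 scale, Slc1a5 was 3.39 higher after the 3–100 kDa proteins (SE 0.28, adjusted p = 0.00393 by limma with Benjamini–Hochberg adjustment). That call held in each fit that left out 1 library, with adjusted p between 0.00862 and 0.0336. After the secretome the difference was 2.20 (SE 0.36, adjusted p = 0.0459). The secretome call rested on most single libraries: it was lost without IC replicate 1 (adjusted p = 0.188), IC replicate 2 (0.0635), IC replicate 3 (0.126), secretome replicate 2 (0.212) or secretome replicate 3 (0.134), although the difference itself stayed between 1.89 and 2.59. It was also lost with the replicate number as a block (adjusted p = 0.0833) and with no filter on low values (0.0535), and passed in 8 of the 15 alternatives. After EV the difference was 1.79 (SE 0.30, 95% interval 1.06 to 2.52), with an unadjusted p of 0.000818 and an adjusted p of 0.200 by limma.

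Slc1a4 (ASCT1), the other ASC exchanger, which carries serine, alanine and cysteine, was expressed in every group. It was 59.0, 63.8 and 59.1 TPM in IC, 53.5, 68.2 and 61.0 TPM after EV, 51.4, 63.8 and 56.7 TPM after the proteins, and 64.8, 73.9 and 72.0 TPM after the secretome. Only the secretome libraries lay wholly above IC, with a difference of 0.23 (SE 0.13, adjusted p = 0.444). On the TPM scale, Slc1a4 thus stood far above Slc1a5 in IC, with means of 60.6 and 0.679, and less so after the proteins, with means of 57.3 and 16.9.

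Slc6a17 (NTT4) was 94.8, 81.4 and 71.9 TPM in IC and 88.8, 74.8 and 75.4 TPM after EV. After the 3–100 kDa proteins it was 152, 128 and 106 TPM, and after the total secretome 130, 125 and 106 TPM. The EV libraries overlapped IC, and all 6 libraries given proteins or secretome lay above both. The difference from IC was 0.56 after the secretome (SE 0.09, adjusted p = 0.0480), 0.65 after the proteins (SE 0.13, adjusted p = 0.0551) and -0.06 after EV (SE 0.14, adjusted p = 1). The secretome call was lost without IC replicate 1 (adjusted p = 0.143), IC replicate 3 (0.121), secretome replicate 1 (0.147), secretome replicate 2 (0.248) or secretome replicate 3 (0.186), and with the replicate block (0.111), while the difference stayed between 0.51 and 0.61. It was also lost with no filter on low values (0.0565), a mean of at least 5 TPM (0.0519), at least 1 TPM in 3 libraries (0.0513), no rescaling (0.176) and no mean–variance trend (0.0830), and passed in 4 of the 15 alternatives. The protein difference passed in 2 of 15, with all 12 libraries in 1 fit (adjusted p = 0.00955) and with at least 1 TPM in 3 libraries (0.0499).

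Slc7a1 (CAT-1), which imports arginine and lysine, was 12.9, 8.32 and 14.1 TPM in IC. It was 10.4, 19.2 and 20.6 TPM after EV, 17.2, 28.6 and 24.1 TPM after the proteins, and 19.9, 18.5 and 20.5 TPM after the secretome. The protein and secretome libraries all lay above IC, and the EV libraries overlapped it. The differences were 0.96 (SE 0.28, adjusted p = 0.141) after the proteins, 0.74 (SE 0.22, adjusted p = 0.177) after the secretome and 0.44 (SE 0.32, adjusted p = 1) after EV, so none passed the adjusted threshold. Under a looser threshold, a change of at least 1.5-fold with p under 0.05 before adjustment, the members called were Slc1a5 in EV against IC (1 of 33, beside 2.21% of all tested genes), Slc1a5, Slc6a17 and Slc7a1 in the protein comparison (3 of 33, beside 9.78%), and Slc1a5 and Slc7a1 in the secretome comparison (2 of 33, beside 7.97%). These counts rose to 3 without EV replicate 1, which added Slc7a1 and Slc7a11, to 5 for the proteins without IC replicate 2 or protein replicate 1, and to 5 for the secretome without secretome replicate 1. In these fits the calls over all 12861 tested genes rose too, from 284 to 444 for EV. For the proteins they went from 1258 to 1358 and 1579, in that order, and for the secretome from 1025 to 1170. Named calls were also lost. Slc6a17 was not called after the proteins without protein replicate 1, where its difference was 0.56, and Slc7a1 was not called after the secretome without IC replicate 2 (0.52) or secretome replicate 3 (0.66, unadjusted p = 0.0548 by limma). The other 4 cationic carriers, Slc7a2, Slc7a3, Slc7a4 and Slc7a14, had means of 2.22 to 11.7 TPM and overlapped IC in every comparison.

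**Figure D3:**
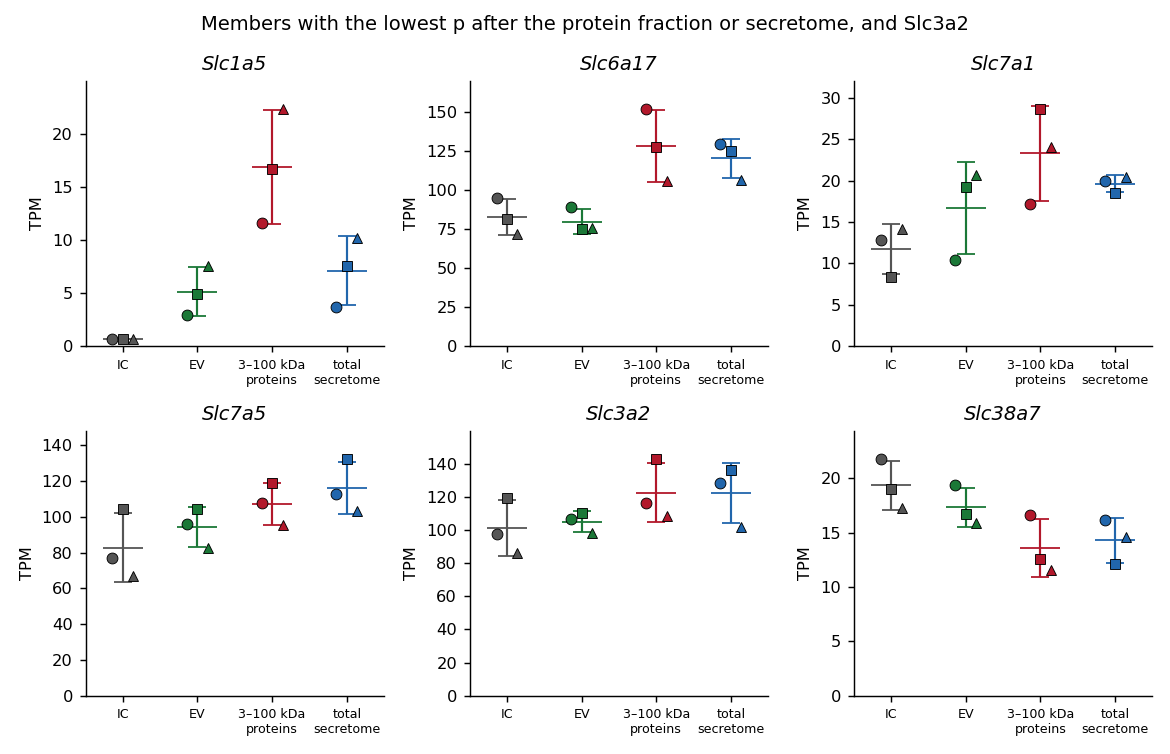
TPM per library of 6 members by condition, each on an axis from 0. Circles, squares and triangles are replicates 1, 2 and 3, and bars are the mean ± SD of 3 libraries. Slc1a5 and Slc6a17 are higher in every protein and secretome library than in any IC library, and Slc38a7 is lower in every one of them.

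Promoter sequences are shown for Slc7a1, Slc6a17 and Slc7a5, a choice from the members called in some fit against IC. Slc7a1 was called only at the looser threshold, and others called there in some fit, Slc1a6 among them, are not shown. The RefSeq promoter table (rat build GRCr8) held 40 of the 55 members and 24 of the 33 tested, and Slc1a5 was not among them. Each run is the 250 bases before the annotated start, written 5′ to 3′ on the gene's strand, and capitals mark a match to 1 of the 4 motifs searched on both strands. These lie at chr12:11664238-11664487 (plus strand) for Slc7a1, chr2:197843884-197844133 (minus strand) for Slc6a17 and chr19:66872413-66872662 (minus strand) for Slc7a5.
Slc7a1: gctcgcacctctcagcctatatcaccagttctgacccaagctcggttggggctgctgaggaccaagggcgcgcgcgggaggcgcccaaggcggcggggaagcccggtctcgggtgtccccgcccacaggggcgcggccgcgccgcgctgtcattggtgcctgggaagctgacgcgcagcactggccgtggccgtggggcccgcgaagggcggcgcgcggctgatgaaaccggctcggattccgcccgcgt
Slc6a17: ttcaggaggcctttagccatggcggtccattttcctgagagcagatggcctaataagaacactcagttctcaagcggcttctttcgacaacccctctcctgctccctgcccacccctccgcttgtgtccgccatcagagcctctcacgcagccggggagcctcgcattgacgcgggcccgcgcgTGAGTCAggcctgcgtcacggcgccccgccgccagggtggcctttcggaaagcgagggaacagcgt
Slc7a5: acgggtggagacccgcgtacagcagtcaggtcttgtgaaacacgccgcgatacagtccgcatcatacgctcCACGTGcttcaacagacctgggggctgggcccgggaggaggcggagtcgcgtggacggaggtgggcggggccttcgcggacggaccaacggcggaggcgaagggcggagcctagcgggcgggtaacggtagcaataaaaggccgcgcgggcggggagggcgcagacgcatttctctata
The Slc6a17 promoter held the AP-1 letters TGAGTCA at 66 to 60 bases before the start, and the Slc7a5 promoter held the E-box CACGTG at 179 to 174 bases before it. Slc7a1 held none of the 4. Among the 24 tested members matched, the E-box was found in 5 (Slc1a4, Slc1a6, Slc7a5, Slc7a14 and Slc38a7), beside 5.59% of all 33469 promoter entries. The AP-1 letters were found in 1, Slc6a17 (4.05% of all entries), the cAMP response element core TGACGTC in 3, Slc3a2, Slc38a6 and Slc38a7 (2.8%), and the C/EBP-ATF core TGATGCA in 2, Slc1a4 and Slc38a1 (2.5%). The motifs do not contain one another. Some genes have several entries in the table, of which the first was read. A match describes letters in this window and was not tested as a binding site.

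Slc7a5 (LAT1), which carries leucine and other large neutral amino acids, and Slc3a2 (4F2hc or CD98), the heavy chain that takes it to the membrane, were at similar levels. Slc7a5 was 76.9, 104 and 67.0 TPM in IC, 96.1, 104 and 82.5 TPM after EV, 108, 119 and 95.5 TPM after the proteins, and 113, 132 and 103 TPM after the secretome. IC replicate 2 lay as high as the lower treated libraries, so that each treated group overlapped IC. The difference was 0.42 after the proteins (SE 0.17, adjusted p = 0.262) and 0.52 after the secretome (SE 0.18, adjusted p = 0.215), and without IC replicate 2 both passed (0.59 with adjusted p = 0.0370, and 0.69 with adjusted p = 0.0490).

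Slc3a2 was 97.4, 119 and 86.1 TPM in IC, 107, 110 and 98.0 TPM after EV, 116, 143 and 108 TPM after the proteins, and 129, 136 and 102 TPM after the secretome. All groups overlapped, with differences of 0.06, 0.31 and 0.29 (adjusted p = 1, 0.345 and 0.370). The ratio of Slc7a5 to Slc3a2, both in TPM, ranged from 0.778 to 1.01 over the 12 libraries. The other light chains tested were Slc7a6, Slc7a8, Slc7a10 and Slc7a11, all of which overlapped IC in every comparison. Slc7a11 (xCT), the cystine–glutamate exchanger, had the widest spread of these, from 4.53 TPM in EV replicate 1 to 31.0 TPM in EV replicate 2, and its 95% interval against IC after EV ran from -1.42 to 1.63.

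No glutamate transporter passed the threshold in any comparison. Slc1a3 was 295, 183 and 274 TPM in IC, 193, 297 and 319 TPM after EV, 232, 336 and 367 TPM after the proteins, and 309, 313 and 337 TPM after the secretome. The secretome libraries lay above all IC libraries, with a difference of 0.40 (SE 0.21, adjusted p = 0.404), and the other groups overlapped IC. Slc1a2 (GLT-1), the main forebrain glutamate transporter of mature astrocytes, was low in IC replicate 2 at 31.6 TPM, EV replicate 1 at 27.8 TPM and protein replicate 1 at 32.9 TPM, and between 54.0 and 78.1 TPM in the other 9 libraries. Slc1a3 was at its lowest value of each of these groups in the same 3 libraries. The 95% interval for Slc1a2 after EV, -1.01 to 1.21, spans a change of more than 1.5-fold in either direction. Slc1a1 (EAAC1), a neuronal glutamate transporter, ranged from 36.9 to 57.1 TPM over the 12 libraries and overlapped in every group. Slc1a6 (EAAT4), known from Purkinje cells, had a mean of 5.79 ± 0.858 TPM in IC (SD, n = 3) and 3.79 ± 0.993 TPM after the secretome, where its libraries lay below IC with a difference of -0.50 (SE 0.21, adjusted p = 0.309).

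Slc6a11 (GAT-3), the astrocytic GABA transporter, ranged from 62.4 to 105 TPM over the 12 libraries and overlapped IC in all comparisons. Its differences from IC were -0.17 after EV (SE 0.19, adjusted p = 1), -0.17 after the proteins (SE 0.21, adjusted p = 0.744) and -0.01 after the secretome (SE 0.18, adjusted p = 0.993). Summed over 7 markers, the level of inhibitory neurons was 386 to 470 TPM in IC and 325 to 515 after EV. It was 347 to 521 TPM after the proteins and 368 to 407 after the secretome, with all groups overlapping. Of the 7 markers, 5 had a fold change above 0 and 2 below 0 after EV (median 0.03 on the log2 scale). The split was 2 and 5 after the proteins (-0.23), and 1 and 6 after the secretome (-0.20).

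**Figure D4:**
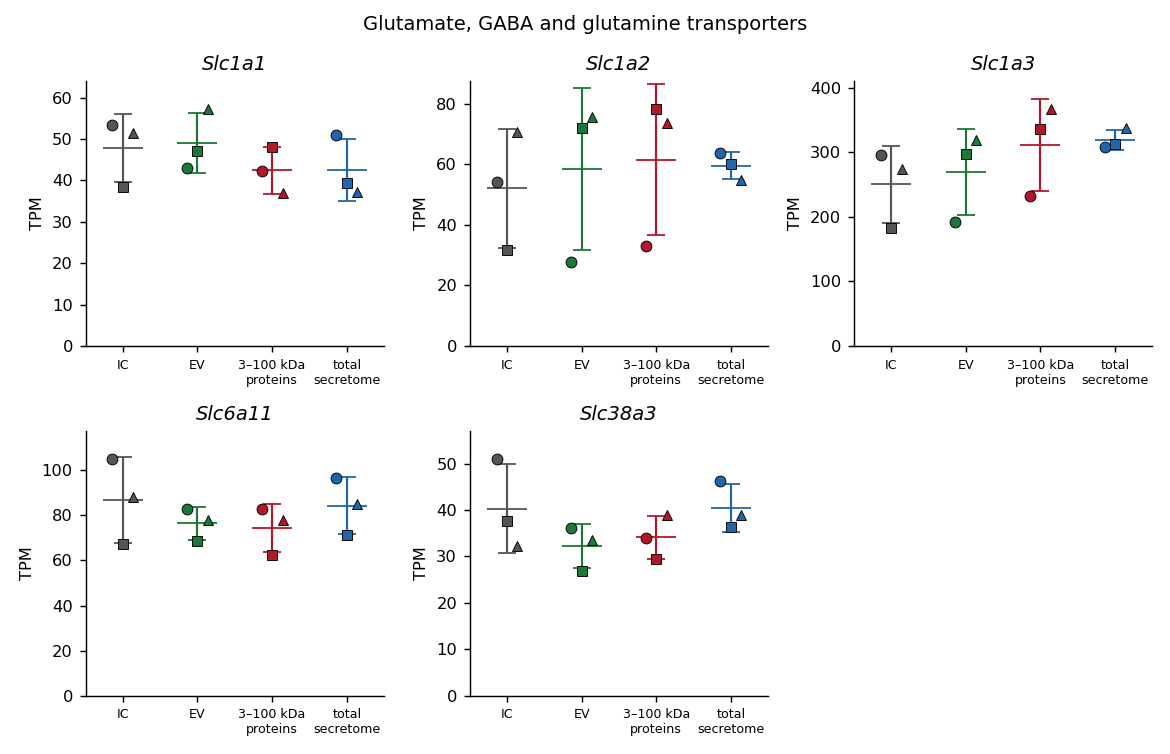
TPM per library of 3 glutamate transporters, 1 GABA transporter and 1 glutamine transporter by condition, each on an axis from 0. Circles, squares and triangles are replicates 1, 2 and 3, and bars are the mean ± SD of 3 libraries. The Slc1a2 libraries at 31.6, 27.8 and 32.9 TPM stand below the other 9, and every treated group of each gene overlaps IC except Slc1a3 after the secretome.

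The remaining plasma membrane members of family 6 differed little from IC. Slc6a9 (GlyT1), the glycine transporter, had means of 24.4 ± 5.27 TPM in IC and 16.8 ± 5.50 TPM after the proteins (SD, n = 3), with overlapping libraries and an adjusted p of 0.349. Slc6a15, a carrier of branched-chain amino acids and proline, and Slc6a7, the proline transporter, overlapped IC in every comparison at means over the 12 libraries of 31.2 and 10.4 TPM. Slc6a6, the taurine transporter, was 56.0, 44.4 and 51.6 TPM in IC, 48.0, 49.1 and 49.4 TPM after EV, 52.8, 47.8 and 44.0 TPM after the proteins, and 56.2, 47.7 and 40.7 TPM after the secretome. Its groups overlapped, and the 95% interval after EV was -0.37 to 0.26. Slc6a8, the creatine transporter, differed by 0.27 after the secretome (SE 0.11, adjusted p = 0.303).

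The glutamine carriers of family 38 showed no called difference. Slc38a1, a system A carrier of neurons, was 54.8, 38.4 and 63.0 TPM in IC, 36.7, 61.8 and 67.9 TPM after EV, 40.9, 64.7 and 53.3 TPM after the proteins, and 48.5, 51.9 and 52.6 TPM after the secretome. Slc38a3, a system N carrier of astrocytes, was 51.0, 37.7 and 32.2 TPM in IC, 36.2, 26.9 and 33.5 TPM after EV, 33.9, 29.5 and 38.9 TPM after the proteins, and 46.3, 36.3 and 38.9 TPM after the secretome. Both overlapped IC in each group, with 95% intervals after EV of -0.64 to 0.77 for Slc38a1 and -0.79 to 0.17 for Slc38a3. Slc38a2, the other system A carrier and a known amino acid response target, ranged from 24.3 to 42.0 TPM and overlapped IC throughout.

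Slc38a10 was 16.3, 17.2 and 17.8 TPM in IC, 18.1, 17.8 and 17.1 TPM after EV, 17.3, 13.6 and 14.5 TPM after the proteins, and 17.2, 15.4 and 16.1 TPM after the secretome, with all groups overlapping. Slc38a7, a lysosomal glutamine carrier, was 21.8, 19.0 and 17.2 TPM in IC, 19.3, 16.7 and 15.9 TPM after EV, 16.7, 12.6 and 11.5 TPM after the proteins, and 16.2, 12.1 and 14.6 TPM after the secretome. The protein and secretome libraries of Slc38a7 lay below IC, with differences of -0.46 (SE 0.15, adjusted p = 0.194) and -0.40 (SE 0.14, adjusted p = 0.238). Slc38a9, a lysosomal arginine sensor, and Slc38a6 overlapped IC at means over the 12 libraries of 2.89 and 1.35 TPM.

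Counted over all members, libraries did not overlap between the 2 groups for 1 of 33 members in EV against IC, beside 5.09% of all tested genes (Slc1a5, higher). The protein comparison had 5 of 33, beside 20.3%: Slc1a5, Slc6a17 and Slc7a1 were higher (10.5% of all tested genes were), and 2, Slc38a7 among them, were lower (9.77%). The secretome comparison had 8 of 33, beside 20.1%: Slc1a3, Slc1a4, Slc1a5, Slc6a17 and Slc7a1 were higher (11.4% of all tested genes), and 3, Slc1a6 and Slc38a7 among them, were lower (8.72%). Members were thus separated from IC about as often as other genes.

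The preparations were also compared with each other, at doses that differed (10, 15 and 45 µg/mL), so that preparation and dose cannot be told apart. No member had an adjusted p under 0.05 between EV and the proteins (0.373% of all tested genes), between EV and the secretome (0.132%) or between the secretome and the proteins (0.0156%), and 2, 3 and 1 members had an unadjusted p under 0.05 (9.87%, 8.17% and 2.82% of all tested genes). Slc1a5 was lower after EV than after the proteins by a log2 difference of -1.59 (SE 0.38, adjusted p = 0.232), and Slc6a17 by -0.70 (SE 0.14, adjusted p = 0.167), with no overlap between libraries for either gene. Same-numbered EV and protein libraries deviated together, and with the replicate number as a block both passed (adjusted p = 0.0284 and 0.0460). Slc6a17 was also lower after EV than after the secretome, by -0.60 (SE 0.12, adjusted p = 0.290), and this passed without EV replicate 1. Slc1a6 was higher after EV than after the secretome, by 0.74 (SE 0.23, adjusted p = 0.515), and Slc7a5 lower, by -0.31 (SE 0.13, adjusted p = 0.601). Between the secretome and the proteins, Slc1a5 differed by -1.18 (SE 0.42, adjusted p = 1), with no overlap, and Slc6a17 by -0.08 (95% interval -0.34 to 0.17). An F test over the 4 conditions called Slc1a5 (adjusted p = 0.00273) and Slc6a17 (adjusted p = 0.00902). This is 2 of 33 members beside 4.49% of all tested genes, and without Slc1a5 only Slc6a17 would remain.

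The genes that make, degrade and load the neurotransmitters these carriers move were read as a list of 15, of which 13 were tested. None of the 13 had an adjusted p under 0.05 in any comparison with IC, and none had an unadjusted p under 0.05. Their libraries did not overlap IC for 0 genes after EV (5.09% of all tested genes), 1 after the proteins (20.3%) and 3 after the secretome (20.1%). Glul, the astrocytic glutamine synthetase, differed from IC by -0.03 after EV, 0.02 after the proteins and 0.14 after the secretome (adjusted p = 1, 0.977 and 0.721).

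A second list held 20 genes of the amino acid response, of which 18 were tested. With an adjusted p under 0.05, 0 of 18 passed after EV (0.0933% of all tested genes), 2 after the proteins (2.86%) and 1 after the secretome (1.82%). Atf4, the transcription factor that drives the response, was 204, 235 and 179 TPM in IC, 291, 223 and 210 TPM after EV, 368, 342 and 287 TPM after the proteins, and 356, 298 and 262 TPM after the secretome. It was higher after the proteins by 0.72 (SE 0.12, adjusted p = 0.0384), and the secretome libraries also lay above IC (0.58, SE 0.12, adjusted p = 0.0794). Ddit4, a stress-induced inhibitor of mTORC1 signalling, moved the other way. It was 70.1, 69.2 and 46.2 TPM in IC, 47.4, 41.2 and 33.6 TPM after EV, 25.1, 14.5 and 18.5 TPM after the proteins, and 31.2, 20.3 and 22.9 TPM after the secretome. The protein and secretome libraries lay below IC, by -1.60 (SE 0.23, adjusted p = 0.0208) and -1.26 (SE 0.18, adjusted p = 0.0327). The Atf4 call after the proteins was lost in each fit without IC replicate 1 or 3 or any 1 of the 3 protein libraries, with an adjusted p of 0.0957 to 0.174. That of Ddit4 after the proteins was lost without any 1 IC library or protein replicate 2 or 3 (0.0528 to 0.123). After the secretome, the Ddit4 call was lost without IC replicate 1 or 3 or any 1 of the 3 secretome libraries (0.0544 to 0.163), without rescaling (0.0563), and with the replicate number as a block (0.0819).

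Under the looser threshold (1.5-fold with p under 0.05 before adjustment), 1 of the 18 was called after EV (Ddit4, lower by -0.59), 6 after the proteins and 3 after the secretome, beside 2.21%, 9.78% and 7.97% of all tested genes. After the proteins, these were Atf4, the mitochondrial folate enzymes Mthfd2 (1.08, adjusted p = 0.0604) and Shmt2 (0.63, adjusted p = 0.0631), the translation repressor Eif4ebp1 (0.85, adjusted p = 0.177) and the transcription factor Cebpb (0.72, adjusted p = 0.281), all higher, and Ddit4, lower. After the secretome, these were Mthfd2 (0.99, adjusted p = 0.0967) and Cebpb (0.79, adjusted p = 0.277), higher, and Ddit4, lower. Mthfd2 was 12.3, 19.8 and 11.1 TPM in IC, 21.5, 23.6 and 19.7 TPM after EV, 30.0, 35.2 and 25.9 TPM after the proteins, and 33.0, 30.1 and 23.2 TPM after the secretome. Its protein and secretome libraries lay above IC, and EV replicate 3 overlapped IC replicate 2. Leaving out 1 library changed these looser calls. The EV call of Ddit4 was lost without IC replicate 1 or 2 or EV replicate 2 or 3 (unadjusted p of 0.0585 to 0.0700 by limma). Mthfd2 was called after EV without IC replicate 2 (0.81). After the proteins, the smallest Shmt2 difference over the alternatives was 0.57, under 1.5-fold. Of the 18 tested genes of this list, 8 had a fold change above 0 and 10 below 0 after EV (median -0.04 on the log2 scale). The split was 10 and 8 after the proteins (0.20), and 11 and 7 after the secretome (0.26). No correlation between these genes and the transporters was tested.

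Cell type markers were read in the same libraries. The summed level of 10 astrocyte markers was 744 to 1331 TPM in IC, 949 to 1407 after EV, 965 to 1276 after the proteins and 1109 to 1504 after the secretome, with all groups overlapping. Within it, Gfap was 491, 617 and 362 TPM after EV, above every IC library (1.58, SE 0.53, adjusted p = 1). Of the 9 astrocyte markers tested, 4 had a fold change above 0 and 5 below 0 after EV (median -0.0087 on the log2 scale), 5 and 4 after the proteins (0.06), and 6 and 3 after the secretome (0.09). The summed level of 10 neuronal markers was 4965 to 5475 TPM in IC, 4889 to 5645 after EV, 4395 to 5457 after the proteins and 4286 to 5442 after the secretome. Within it, Nefm, a neurofilament protein, was 23.8, 18.0 and 20.1 TPM in IC, 24.9, 16.9 and 21.8 TPM after EV, 38.4, 37.2 and 31.3 TPM after the proteins, and 42.2, 32.2 and 28.9 TPM after the secretome. Its protein and secretome libraries lay above IC, with differences of 0.79 (SE 0.13, adjusted p = 0.0328) and 0.72 (SE 0.14, adjusted p = 0.0726), and EV overlapped IC (0.02, SE 0.21, adjusted p = 1). The other 9 neuronal markers did not have an adjusted p under 0.05 in any comparison with IC. After the proteins, 4 of the 10 had a fold change above 0 and 6 below 0 (median -0.06 on the log2 scale), and after the secretome 3 and 7 (-0.09). The summed level of 9 markers of the oligodendrocyte lineage was 227 to 305 TPM in IC and 235 to 277 after EV. It was 160 to 245 TPM after the proteins and 283 to 333 after the secretome. Of the 8 tested, 2 had a fold change above 0 and 6 below 0 after EV (median -0.08 on the log2 scale). The split was 3 and 5 after the proteins (-0.41), and 6 and 2 after the secretome (0.19). The summed level of 8 markers of meningeal fibroblasts and mural cells was 3.15 to 4.28 TPM in IC and 2.05 to 3.44 after EV. It was 3.30 to 4.17 TPM after the proteins and 2.24 to 3.34 after the secretome, with all groups overlapping IC. Within it, Pdgfrb, the mural cell marker that was tested, was 3.18, 4.01 and 2.45 TPM in IC. It was between 0.321 and 1.73 TPM in all treated libraries, below IC in each group (-1.42 with adjusted p = 0.0249 after the proteins). Col1a1, under the filter of 1 TPM, went the other way, from 0.0365 to 0.360 TPM in IC to 0.576 to 1.81 TPM in the treated libraries. The calls of Nefm and Pdgfrb after the proteins were lost in each fit without IC replicate 1 or 3 or any 1 of the 3 protein libraries, with an adjusted p of 0.0889 to 0.158 for Nefm and 0.0573 to 0.117 for Pdgfrb. The part of these markers in the Slc1a5 and Slc6a17 values was not tested.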

How the data were processed

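Rat cortical neuroglial cultures were profiled by mRNA sequencing in 12 libraries, 3 for each of 4 conditions, and groups were taken from the treatment labels. After trimming, the authors used Salmon with Ensembl rat transcripts and a genome decoy (build Rnor_6.0 per the labels) to estimate levels, and deposited 1 TPM table of 32285 rows per library. TPM divides by transcript length and by the library total, so depth was not kept and a count model such as the study's could not be applied. Rows of one gene name were summed (497 names had more than 1 row). Genes with a mean of at least 1 TPM over the 12 libraries were tested, 12861 in all. Within each of 6 comparisons, TPM was rescaled by median-of-ratios factors and log2(TPM + 1) was fitted with limma 3.58.1 in R 4.3.3 (moderated test with a mean–variance trend, Benjamini–Hochberg adjustment over all tested genes, 2-sided), and an F test covered all 4 conditions. The script was tested on simulated data. An exact permutation test of 3 libraries against 3 cannot give a p below 0.1 and was not used.

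The members and lists were chosen with earlier results of these data known. Genes named with a value in every library passed a threshold in some comparison, had the highest mean of their role group, or were among the 3 lowest p against IC. Slc38a7, Slc1a6, Slc1a2, Gfap, Glul, Nefm and Pdgfrb were added after their values were seen. As a check of pairing, each library's deviation from its group mean was correlated with that of the library of the same number over the tested genes. All 3 correlations were over 0.1 for the secretome with IC (0.22, 0.13 and 0.14), EV with the proteins (0.54, 0.24 and 0.26), EV with the secretome (0.24, 0.18 and 0.18) and the secretome with the proteins (0.34, 0.17 and 0.19), and not for EV with IC (-0.05, -0.15 and 0.45) or the proteins with IC (-0.00, -0.21 and 0.21). This pairing is a hint from the data, since the labels do not say whether a replicate number stands for a culture or a day.

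The alternatives were all 12 libraries in 1 fit, a pseudocount of 0.1, other filters, no rescaling, no trend, the largest row of each name, the replicate block and leaving out each library. Promoter letters came from a RefSeq table of build GRCr8, whose coordinates are not those of the deposited files. One tested member is counted but not reported here by name. Neurod2 and Pecam1, listed as markers, were not analysed here.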

Additional observations from a re-analysis of the deposited data

How the results depend on the processing

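Counts of members with an adjusted p under 0.05 were the least stable results. For the total secretome against IC, the count of 2 became 0 with no filter on low values, 1 with a mean of at least 5 TPM, 1 with at least 1 TPM in 3 libraries, 1 without rescaling, 1 without the mean–variance trend and 0 with the replicate block, and lay between 0 and 3 when 1 library was left out. For the 3–100 kDa proteins against IC, the count of 1 became 2 with all 12 libraries in 1 fit and 2 with at least 1 TPM in 3 libraries, and lay between 1 and 2 when 1 library was left out. Over all tested genes, the secretome calls went from 234 to between 171 and 257 with those filters, no rescaling or no trend. They lay between 4 and 374 when 1 library was left out. The protein calls went from 368 to 899 with all 12 libraries in 1 fit and to 424 with the filter on 3 libraries. They lay between 69 and 371 when 1 library was left out. EV against IC stayed at 0 members under all alternatives run, beside 0 to 55 of all tested genes. For EV against the proteins, the count of 0 became 1 with all 12 libraries in 1 fit and 2 with the replicate block, and for EV against the secretome it lay between 0 and 1 when 1 library was left out. Over all tested genes, the calls of EV against the proteins went from 48 to 189 in the 1 fit and to 79 with the block. Those of EV against the secretome went from 17 to between 3 and 40 when 1 library was left out. The F test count of 2 became 1 without rescaling and lay between 2 and 3 when 1 library was left out. Under the looser threshold (1.5-fold with p under 0.05 before adjustment), the secretome count of 2 became 3 with at least 1 TPM in 3 libraries and lay between 2 and 5 when 1 library was left out, the protein count of 3 between 3 and 5, and the EV count of 1 between 1 and 3. The replicate block changed no other call of a named transporter against IC. Over all tested genes it took the calls from 368 to 86 after the proteins and from 234 to 87 after the secretome. At the looser threshold, the calls over all tested genes were 1025 for the secretome, 1258 for the proteins and 284 for EV. With 1 library left out they lay between 819 and 1323, between 1042 and 1579, and between 236 and 444. Atf4, Ddit4, Mthfd2, Shmt2, Eif4ebp1, Cebpb, Pdgfrb and Nefm were refitted under the same alternatives, a choice made after seeing the data. With the block, the protein calls of Atf4, Ddit4, Pdgfrb and Nefm had an adjusted p of 0.180, 0.0915, 0.0750 and 0.152. Without rescaling, those of Atf4 and Nefm had 0.104 and 0.0801, and without the trend that of Atf4 had 0.0582. The fold change of Slc1a5 after the proteins passed in all 15 alternatives, from 3.13 to 4.42 on the log2 scale, the higher end with a pseudocount of 0.1. No fold change of a named transporter, or of these 8 genes, against IC that passed a threshold changed sign. The cause of these shifts was not tested. Depth is unknown in TPM, 3 libraries per group limit what could be called, and a difference that was not called is not shown to be absent.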
